A study of Homo sapiens with 14 samples.

Results

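The receptors of the epidermal growth factor receptor (EGFR) family and their ligands were followed by RNA-Seq in MDA-MB-231 cells, a human triple-negative breast cancer line, and in 6 gene-edited lines made from it. The receptors EGFR, ERBB2 and ERBB3 and the ligands AREG, EREG, HBEGF, TGFA and NRG1 are 8 of the 19410 genes in the deposited table. They were taken by name, although earlier results of these data were known when the set was chosen. All 8 passed the filter on low values (1 TPM in at least 2 libraries), AREG through only 4 libraries, 1 parental and 3 SIN3A/3B-DKO. The series asks what loss of SAP30 or SIN3A and SIN3B, which are subunits of the SIN3 histone deacetylase complex, or loss of MLL1, a histone H3 lysine 4 methyltransferase, does to the transcriptome.

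The 14 libraries fall into 7 groups of 2: parental cells and 2 lines each of MLL1-KO, SAP30-KO and SIN3A/3B-DKO, where KO is a CRISPR/Cas9 knockout, DKO a knockout of 2 genes, and a last digit (SAP30-KO1, SAP30-KO2) separates the 2 lines of 1 genotype. All cells were untreated and grown in DMEM with fetal bovine serum. Per the study's methods, each edited line is a mixture of several knockout cells that were picked singly and expanded. Control libraries from cells with a nontargeting guide were not used here, so an effect of editing and cloning on a value cannot be told apart from that of the lost gene. All 6 lines were compared with the same 2 parental libraries. Nothing in the labels says that the 2 libraries of a group came from separate cultures, so the p-values measure only the spread between these libraries.

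Values are TPM, the number of transcripts of a gene in a fixed total per library, which are scaled per transcript length and can be compared between genes. The libraries held 18415036 to 23162682 recovered reads, with a median of 21648530. A gene was called lower or higher when limma gave an adjusted p below 0.05 over 13540 genes and the change on the log2(TPM + 0.5) scale was at least 1.5-fold. SAP30 measured 78.9 and 82.8 TPM in parental cells and 2.75 to 4.96 TPM in the SAP30-KO libraries. KMT2A (MLL1), listed under its older name MLL, measured 49.0 and 56.7 TPM in parental cells and 15.8 to 27.7 TPM in the MLL1-KO libraries, and was called lower in SAP30-KO1 and SAP30-KO2 too (log2 change -0.95 and -0.65). The 51 tested genes around KMT2A on chromosome 11 had a median log2 change of -0.91 and -0.85 there, and of -0.95 and -0.42 in the MLL1-KO lines, where KMT2A itself changed by -1.64 and -0.97. In the libraries labelled SIN3A/3B-DKO, SIN3B was called lower (-0.61 and -0.71) whereas SIN3A RNA was not lower (0.47 and 0.31). The paper reports knockout of both proteins in its DKO cells, checked by immunoblot, and RNA values do not measure protein. SIN3A/3B-DKO is used below as the name of those libraries. The 8 marker genes of the line, such as VIM and CD44, summed to 10035 to 13045 TPM in every library, although single markers changed. KRT8 was called lower in the SAP30-KO and MLL1-KO lines (-0.81 to -1.98). CD44 and FN1 were called higher in the MLL1-KO lines (0.60 to 1.08). A lower CAV1 was called for each SAP30-KO and each SIN3A/3B-DKO line, and a lower KRT18 for each SAP30-KO line. In either direction, 37.5% of the 8 markers were called in SAP30-KO1, SAP30-KO2 and SIN3A/3B-DKO1. The shares were 12.5% in SIN3A/3B-DKO2, 50% in MLL1-KO1 and 62.5% in MLL1-KO2, beside 13.6% to 25.2% of all tested genes. Luminal epithelial markers summed to 73.9 and 76.7 TPM in parental cells, 69.4 to 76.3 TPM in SAP30-KO, 53.8 to 54.9 TPM in SIN3A/3B-DKO1, 29.9 to 33.5 TPM in SIN3A/3B-DKO2 and, within MLL1-KO, 22.4 to 23.8 TPM in line 1 and 15.8 to 17.02 TPM in line 2. Within that list of 10 genes, CDH1 and EPCAM were called lower in all 6 lines, CDH1 having passed the filter only through the parental pair, and GRHL2 was at 0 in every library. Leukocyte and endothelial markers (7 genes, 2 to 4 of them at 0 in a library) summed to 3.60 and 3.66 TPM in parental cells, 4.86 to 7.22 TPM in SAP30-KO, 3.37 to 5.13 TPM in SIN3A/3B-DKO and 8.51 to 9.42 TPM in MLL1-KO. Only 2 of these markers, LYZ and PECAM1, passed the filter. Both were called higher in each MLL1-KO line and in SAP30-KO1, and PECAM1 also in SAP30-KO2. The part of these marker differences in the values below was not tested.

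EGFR family receptors are membrane tyrosine kinases that pair on ligand binding and start signaling through the RAS-ERK and PI3K-AKT chains. AREG, EREG, HBEGF and TGFA are made as membrane proteins, are cut free by surface proteases and bind EGFR, whereas NRG1 binds ERBB3 and ERBB4; ERBB2 has no ligand of its own and serves as a partner, and ERBB3 has little kinase activity. MDA-MB-231 cells carry high EGFR and lack ERBB2 amplification.

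The upstream sequences of 4 genes are shown because of their calls. EREG and AREG are neighbours that were called lower in 6 and 4 lines. HBEGF was called higher in 2 lines, and ERBB2 was called lower in 5 lines. Of the 8 genes, 6 matched the RefSeq promoter table (GRCh38.p14), and the windows were placed on GRCh37, the build of the hg19 alignments, by exact match. The 250 bases before the RefSeq start are printed 5′ to 3′ on the gene's strand, with capitals for matches on either strand to 6 motifs, those of AP-1, CRE, SP1, the TATA box, ETS and the E-box. EREG is at chr4:75230612-75230861 (plus strand), AREG at chr4:75310603-75310852 (plus strand), HBEGF at chr5:139726189-139726438 (minus strand) and ERBB2 at chr17:37844097-37844346 (plus strand).
EREG: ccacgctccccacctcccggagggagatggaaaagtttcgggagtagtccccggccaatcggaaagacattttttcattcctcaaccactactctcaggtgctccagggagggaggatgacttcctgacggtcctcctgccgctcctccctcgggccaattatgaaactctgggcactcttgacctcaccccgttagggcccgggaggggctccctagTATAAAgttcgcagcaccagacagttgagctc
AREG: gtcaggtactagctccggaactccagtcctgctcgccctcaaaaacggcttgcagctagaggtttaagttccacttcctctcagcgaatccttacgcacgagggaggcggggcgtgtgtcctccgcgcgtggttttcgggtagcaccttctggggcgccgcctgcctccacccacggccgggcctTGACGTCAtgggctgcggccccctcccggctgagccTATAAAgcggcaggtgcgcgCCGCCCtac
HBEGF: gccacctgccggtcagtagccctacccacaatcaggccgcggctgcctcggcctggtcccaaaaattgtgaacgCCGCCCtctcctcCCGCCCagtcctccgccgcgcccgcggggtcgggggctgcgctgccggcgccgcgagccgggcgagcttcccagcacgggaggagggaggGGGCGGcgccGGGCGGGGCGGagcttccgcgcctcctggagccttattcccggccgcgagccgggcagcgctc
ERBB2: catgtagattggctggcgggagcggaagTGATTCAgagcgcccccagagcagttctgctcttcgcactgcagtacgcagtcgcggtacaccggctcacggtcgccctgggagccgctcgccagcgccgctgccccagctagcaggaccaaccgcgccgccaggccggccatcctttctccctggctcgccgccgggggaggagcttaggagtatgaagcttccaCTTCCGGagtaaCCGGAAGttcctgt

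EREG and AREG both held the TATA box searched for, TATAAA, 32 and 29 bases before the start, a motif that 11.5% of 35116 RefSeq windows of 300 bases hold. AREG also held the CRE motif, TGACGTCA, 65 bases before the start (1.85% of windows), and 1 SP1 match. EREG held none of the other 5 motifs in its window, and the E-box, CACGTG (7.26% of windows), was in none of the 4 windows. HBEGF held 5 matches to the SP1 motif, GGGCGG, of which the last 2 overlap, where 44.95% of windows hold at least 1. ERBB2 held 1 match to the AP-1 motif, TGANTCA, which 7.71% of windows hold. It also held 2 matches to the ETS motif, CCGGAAG, which 10.3% of windows hold. The 300-base windows held 12 CpG dinucleotides for EREG, 27 for AREG, 38 for HBEGF and 24 for ERBB2, against a median of 14 over all windows. A match describes the letters and not binding.

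Among these 3 receptors, EGFR RNA was the most abundant and ERBB3 the least, and each receptor had its own pattern over the lines. EGFR (GRCh37 chr7:55086710-55279321) measured 192 and 177 TPM in parental cells, 118 and 96.1 for SAP30-KO1, 139 and 128 for SAP30-KO2, 133 and 134 for SIN3A/3B-DKO1, 154 and 172 for SIN3A/3B-DKO2, 146 and 137 for MLL1-KO1, and 119 and 127 for MLL1-KO2. Both parental libraries were above all 12 edited libraries, with SIN3A/3B-DKO2 next to them. In bulk libraries such as these, fewer cells that make a transcript and less transcript per cell cannot be told apart. The change was called in SAP30-KO1 (log2 change -0.79, SE 0.09; adjusted p = 2.77e-05). In the other lines it ran from -0.18 (SIN3A/3B-DKO2, adjusted p = 0.119) to -0.58 (MLL1-KO2, adjusted p = 0.000176), short of 1.5-fold. The EGFR neighbourhood on chromosome 7, measured as the median of the 51 tested genes around it, ran from -0.10 to 0.06.

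ERBB2, the receptor gene amplified in HER2-positive tumors, was called lower in 5 of the 6 lines. ERBB2 (chr17:37844167-37886679) measured 42.8 and 41.5 TPM in parental cells, 26.3 and 26.9 for SAP30-KO1, 28.5 and 26.5 for SAP30-KO2, 22.0 and 22.6 for SIN3A/3B-DKO1, 24.9 and 21.9 for SIN3A/3B-DKO2, 25.8 and 26.6 for MLL1-KO1, and 28.2 and 29.0 for MLL1-KO2. The parental libraries stood above every edited library, and the SIN3A/3B-DKO libraries were the lowest. The log2 changes were -0.65 and -0.61 in the SAP30-KO lines, -0.90 and -0.84 in the SIN3A/3B-DKO lines, and -0.68 in MLL1-KO1 (SE 0.06), each called, with -0.55 in MLL1-KO2, short of 1.5-fold. The SAP30-KO2 call was lost without SAP30-KO2 replicate 2 (-0.56), and the MLL1-KO1 call under median ratio scaling (-0.58) and quantile normalization (-0.55). The genes around ERBB2 were also lower in every line: the median log2 change of its 51 neighbours ran from -0.41 in MLL1-KO1 to -0.34 in SAP30-KO1, and 38 to 45 of the 51 lay below 0. With that running median subtracted, ERBB2 was called in no line, with values of -0.54 and -0.47 in the SIN3A/3B-DKO lines and -0.28, -0.25 and -0.27 in SAP30-KO1, SAP30-KO2 and MLL1-KO1. Whether the shift of the neighbourhood has a part in the lower ERBB2 was not tested further.

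**Figure D1:**
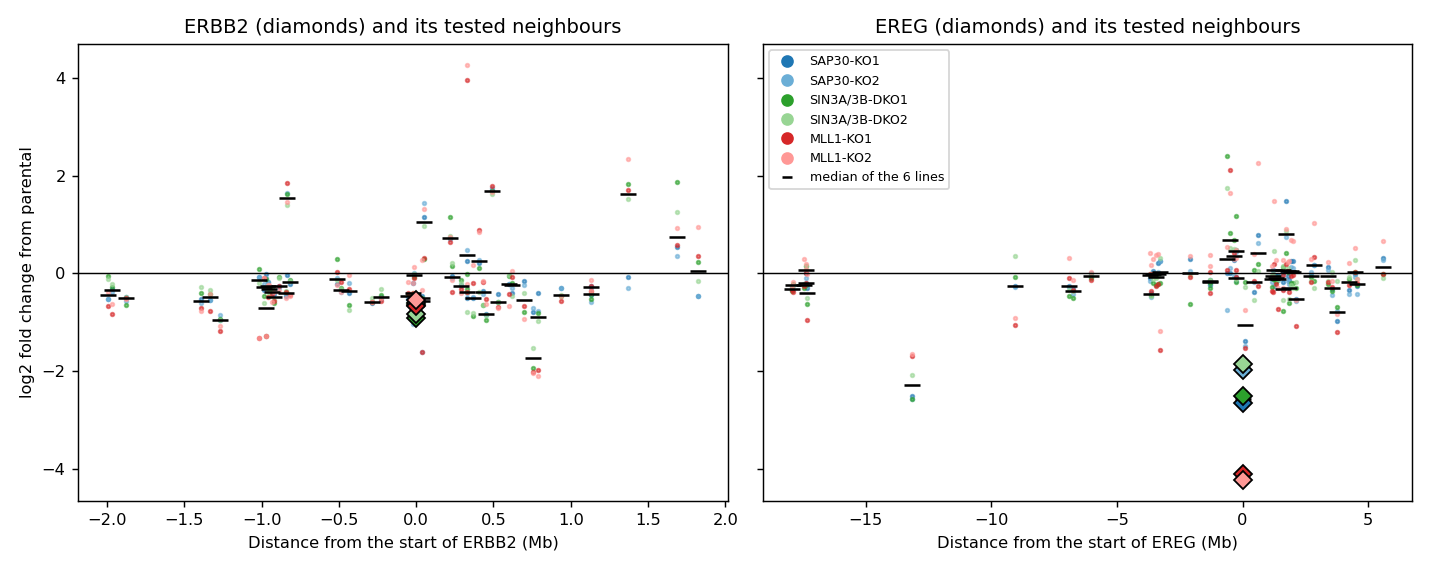
Log2 fold change from parental (y axis) of the 51 tested genes around ERBB2 (left) and EREG (right) against distance from the start of that gene in Mb (x axis). Small dots are single lines, black dashes the median of the 6 lines, and diamonds ERBB2 or EREG itself; most neighbours of ERBB2 lie below 0, whereas EREG lies far below most of its neighbours.

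ERBB3, the receptor for NRG1, separated MLL1-KO from the other lines. ERBB3 (chr12:56470583-56497289) measured 4.90 and 4.50 TPM in parental cells, 5.83 and 5.29 for SAP30-KO1, 6.73 and 6.997 for SAP30-KO2, 5.70 and 4.805 for SIN3A/3B-DKO1, and 5.54 and 5.64 for SIN3A/3B-DKO2. MLL1-KO1 libraries measured 2.18 and 1.97 TPM, and MLL1-KO2 libraries 1.86 and 1.73 TPM. All 4 MLL1-KO libraries were below the other 10. The log2 change was -1.01 in MLL1-KO1 (SE 0.11, adjusted p = 9.79e-06) and -1.18 in MLL1-KO2 (adjusted p = 2.61e-06), and it was not called in the other 4 lines (0.14 to 0.50). Compared directly, the MLL1-KO lines were lower than the SAP30-KO lines by -1.46 (adjusted p = 1.92e-08) and than the SIN3A/3B-DKO lines by -1.28 (adjusted p = 5.46e-08).

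**Figure D2:**
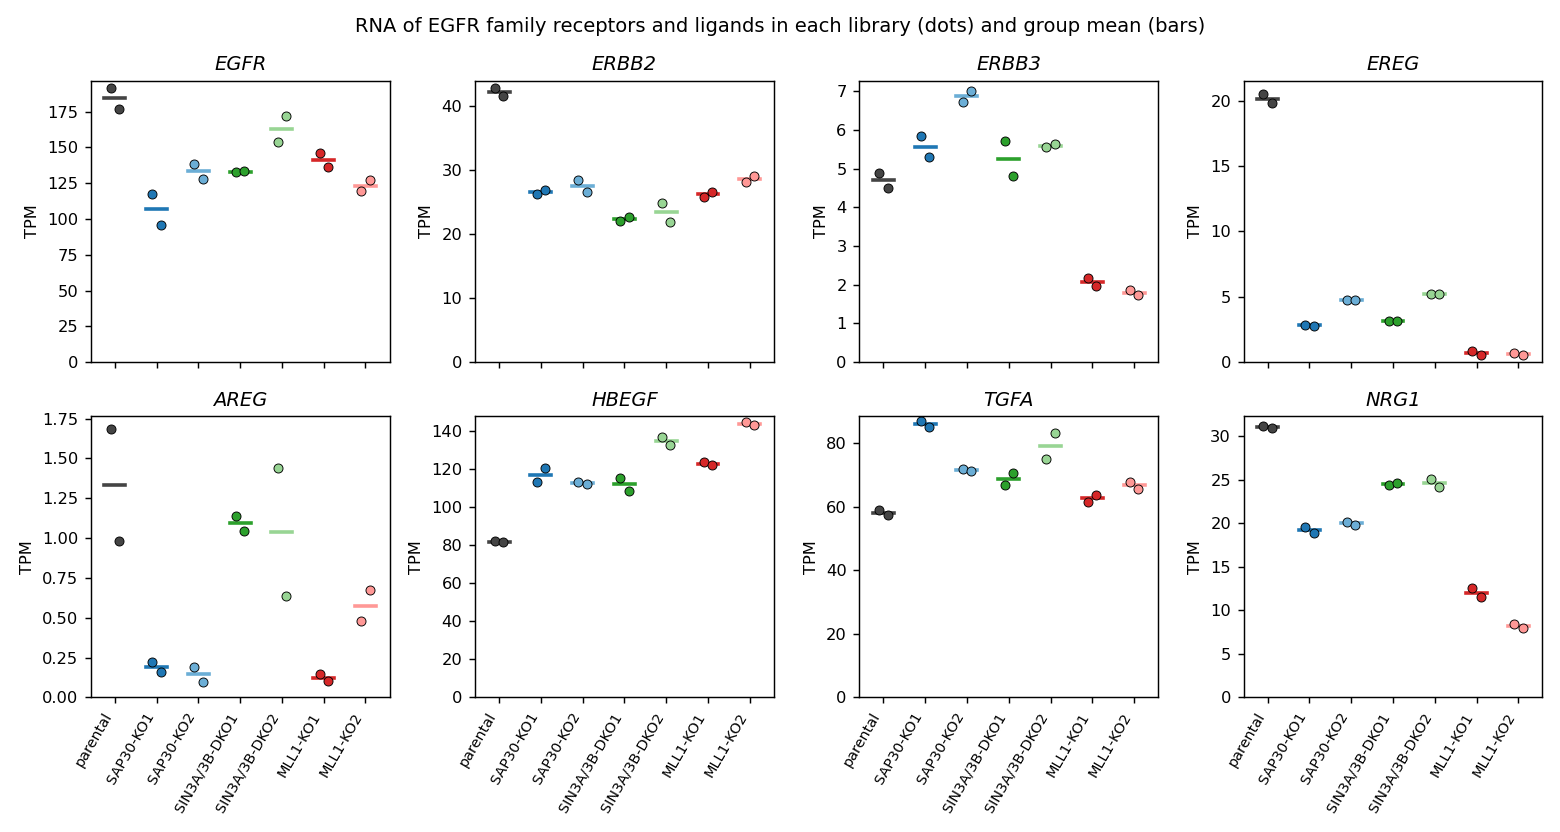
TPM (y axis, from 0) of the 3 receptors and 5 ligands in each of the 14 libraries. Dots are libraries and bars the mean of the 2 libraries of a group; EREG is highest in parental cells and lowest in MLL1-KO, whereas HBEGF and TGFA are lowest in parental cells.

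EREG (epiregulin), a ligand of EGFR and ERBB4, had the largest change of the 8 genes and was called lower in all 6 lines, as were 2.67% of the genes tested. EREG (chr4:75230862-75254466) measured 20.5 and 19.8 TPM in parental cells, 2.85 and 2.76 for SAP30-KO1, 4.78 and 4.77 for SAP30-KO2, 3.15 and 3.12 for SIN3A/3B-DKO1, 5.24 and 5.24 for SIN3A/3B-DKO2, 0.85 and 0.57 for MLL1-KO1, and 0.67 and 0.54 for MLL1-KO2. No edited library came near the parental pair, and the 4 MLL1-KO libraries lay below all others. The means were 7.19-fold and 4.22-fold lower than parental for lines 1 and 2 of SAP30-KO, 6.43-fold and 3.85-fold lower for those of SIN3A/3B-DKO, and 28.6-fold and 33.3-fold lower for those of MLL1-KO. These values rest on 683 and 643 EREG reads in parental cells and on 18 to 32 reads in the MLL1-KO libraries. The fitted log2 changes (SE 0.12) were -2.65, -1.97, -2.51, -1.85, -4.11 and -4.23 in the same order, with adjusted p from 2.94e-10 to 6.45e-07. Only 32 of the 13540 tested genes had a lower change than EREG in MLL1-KO2, and 189 in SIN3A/3B-DKO2.

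Within a genotype, EREG differed between the lines of SAP30-KO and of SIN3A/3B-DKO but was not called different between those of MLL1-KO. EREG was lower in SAP30-KO1 than in SAP30-KO2 (log2 difference -0.68, SE 0.12, adjusted p = 0.0425), in a comparison that called 0.0739% of genes lower. This call was lost in 10 of the 14 fits that left out 1 library, with adjusted p up to 0.266: it did not hold without any 1 of the parental, SAP30-KO1, SAP30-KO2, SIN3A/3B-DKO1 or MLL1-KO2 libraries. SIN3A/3B-DKO1 was likewise lower than SIN3A/3B-DKO2 (-0.66, adjusted p = 0.00627; 1.01% of genes called lower), a call lost without SIN3A/3B-DKO1 replicate 2 (adjusted p = 0.0515). MLL1-KO1 and MLL1-KO2 were not called different (0.12, 95% interval from -0.15 to 0.39). The MLL1-KO lines were below the SAP30-KO lines by -1.86 (adjusted p = 7.91e-09) and below the SIN3A/3B-DKO lines by -1.99 (adjusted p = 4.27e-09), whereas SAP30-KO and SIN3A/3B-DKO were not called different (-0.13, adjusted p = 0.237).

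AREG (amphiregulin), an EGFR ligand whose gene (chr4:75310853-75320722) starts 56.4 kb past the end of EREG, was at the edge of detection. AREG measured 1.69 and 0.98 TPM in parental cells (30 and 17 reads), 0.22 and 0.16 for SAP30-KO1, 0.19 and 0.10 for SAP30-KO2, 1.14 and 1.05 for SIN3A/3B-DKO1, 1.44 and 0.64 for SIN3A/3B-DKO2, 0.15 and 0.10 for MLL1-KO1, and 0.48 and 0.67 for MLL1-KO2. The SAP30-KO and MLL1-KO1 libraries, with 2 to 4 reads each, lay below all others, and the SIN3A/3B-DKO libraries overlapped the parental ones. As a ratio of reads, AREG in SAP30-KO1 was 0.141 of parental (95% exact counting interval 0.0539 to 0.315), in SAP30-KO2 0.110 (0.0383 to 0.257) and in MLL1-KO1 0.0933 (0.0290 to 0.234), intervals that cover counting error only. Lower AREG was called for SAP30-KO1 and SAP30-KO2 (-1.38 and -1.48, SE 0.27), with values of -1.53 for MLL1-KO1 and -0.75 for MLL1-KO2, both called (the latter with adjusted p = 0.0322). The MLL1-KO2 call was lost without parental replicate 1 (-0.47, adjusted p = 0.221), without MLL1-KO2 replicate 1 (-0.61, adjusted p = 0.150) and without MLL1-KO2 replicate 2 (-0.88, adjusted p = 0.0506). In the SIN3A/3B-DKO lines it was not called (-0.17 and -0.28; adjusted p = 0.612 and 0.429).

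Between genotypes, AREG was lower in SAP30-KO than in SIN3A/3B-DKO (-1.21, SE 0.19, adjusted p = 0.000403), in a comparison that called 3.25% of genes lower. AREG was also lower in MLL1-KO than in SIN3A/3B-DKO (-0.91, adjusted p = 0.00145). AREG had passed the filter on low values through the parental and SIN3A/3B-DKO libraries alone, and without that filter the 2 differences had adjusted p = 0.000556 and 0.00163. AREG values carry a further limit: 5 of its 6 exons, 963 of 1234 bases (78.0%), have an exact second copy on chromosome 4 of GRCh37, and the promoter window printed above also matches there. How the authors' counting treated reads that map to both copies is not given in the sources used here, so AREG levels are uncertain. Among the genes near EREG and AREG, the chemokine gene CXCL1 had log2 changes of 2.11 and 1.64 in MLL1-KO1 and MLL1-KO2, and MTHFD2L, the gene just before EREG, changed by -0.17 to 0.47. The median of the 51 genes around EREG ran from -0.20 to -0.06 in 5 lines and was 0.25 in MLL1-KO2.

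HBEGF, a heparin-binding EGFR ligand and the most abundant ligand of the family here, moved in the opposite direction. HBEGF (chr5:139712428-139726188) measured 82.3 and 81.4 TPM in parental cells, 113 and 120 for SAP30-KO1, 113 and 112 for SAP30-KO2, 115 and 109 for SIN3A/3B-DKO1, 137 and 133 for SIN3A/3B-DKO2, 124 and 122 for MLL1-KO1, and 145 and 143 for MLL1-KO2. All 12 edited libraries were above both parental libraries. HBEGF was called higher in SIN3A/3B-DKO2 (0.71, SE 0.04, adjusted p = 1.73e-07) and MLL1-KO2 (0.81, adjusted p = 1.49e-08). In the other 4 lines the log2 change was 0.45 to 0.58, with adjusted p of at most 3.59e-06 but short of 1.5-fold; MLL1-KO1, at 0.58, crossed it under quantile normalization (0.64) and median ratio scaling (0.68).

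TGFA (transforming growth factor alpha), the next ligand by level, was called in no line. TGFA (chr2:70674416-70781325) measured 58.9 and 57.5 TPM in parental cells, 87.1 and 85.1 for SAP30-KO1, 72.0 and 71.5 for SAP30-KO2, 67.0 and 70.6 for SIN3A/3B-DKO1, 75.1 and 83.3 for SIN3A/3B-DKO2, 61.5 and 63.8 for MLL1-KO1, and 68.0 and 65.8 for MLL1-KO2. Here too the parental pair was the lowest of all, but the log2 changes were only 0.11 to 0.56 (SE 0.05), and that in MLL1-KO1 missed the adjusted p (0.0879).

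NRG1 (neuregulin 1), the ligand of ERBB3, was called lower in both SAP30-KO and both MLL1-KO lines. NRG1 (chr8:31496738-32713184) measured 31.1 and 31.0 TPM in parental cells, 19.6 and 18.9 for SAP30-KO1, 20.2 and 19.8 for SAP30-KO2, 24.4 and 24.7 for SIN3A/3B-DKO1, 25.1 and 24.1 for SIN3A/3B-DKO2, 12.6 and 11.5 for MLL1-KO1, and 8.38 and 7.94 for MLL1-KO2. The order was parental, SIN3A/3B-DKO, SAP30-KO and MLL1-KO, with no overlap between genotypes, and the SIN3A/3B-DKO lines overlapped each other. The log2 changes were -0.68 and -0.62 in SAP30-KO, -1.33 and -1.87 in MLL1-KO (SE 0.06, adjusted p = 8.57e-09 and 5.08e-10), and -0.33 in each SIN3A/3B-DKO line, short of 1.5-fold. Compared directly, NRG1 was lower in MLL1-KO than in SAP30-KO (-0.95, adjusted p = 4.23e-09) and than in SIN3A/3B-DKO (-1.27, adjusted p = 4.11e-10). The 51 genes around NRG1 had a median of -0.35 and -0.36 in the MLL1-KO lines and of -0.07 to 0.02 in the other 4, and their part in the NRG1 change was not tested beyond subtracting that median, which left the MLL1-KO calls in place and ended that in SAP30-KO2 (-0.58).

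**Figure D3:**
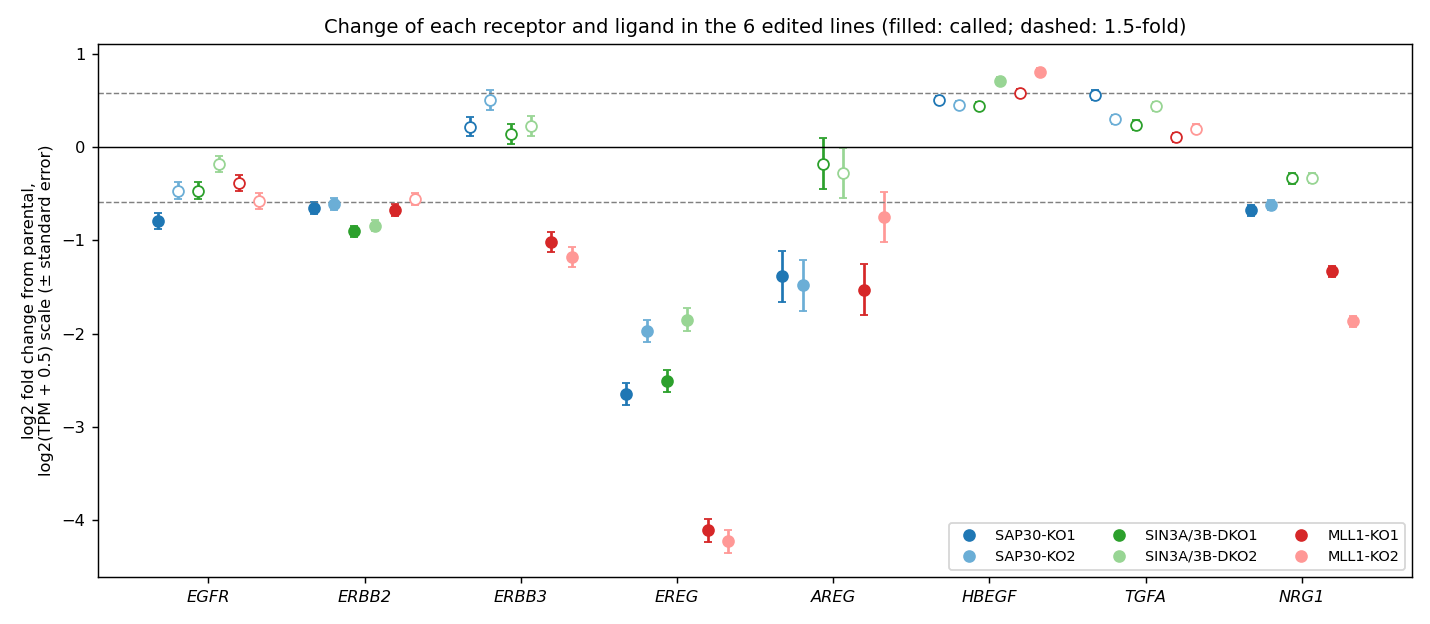
Log2 fold change from parental with its standard error (y axis) of each receptor and ligand (x axis) in the 6 lines. Filled points were called, and dashed lines mark 1.5-fold; all EREG points lie far below the lower line, and all HBEGF and TGFA points lie above 0.

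Counted over the 8 genes, 5 were called lower and 0 higher in SAP30-KO1, where 7.86% of all tested genes were called lower and 7.8% higher. As the set was chosen with earlier results of these data known, the counts here are a description. In SAP30-KO2, 4 were called lower and 0 higher (8.12% and 7.44% of all genes). In SIN3A/3B-DKO1 the counts were 2 and 0 (8.66% and 7.76%), and in SIN3A/3B-DKO2 2 and 1 (7.56% and 6%). They were 5 and 0 for MLL1-KO1 (16.3% and 6.89%), against 4 and 1 for MLL1-KO2 (14.9% and 10.2%). EREG and ERBB2 were the genes called lower in each SIN3A/3B-DKO line. The median log2 change of the 8 genes was -0.67 and -0.54 in SAP30-KO, -0.25 and -0.23 in SIN3A/3B-DKO, and -0.84 and -0.66 in MLL1-KO, whereas that of all tested genes ran from -0.09 to 0.03. The comparison of MLL1-KO with SAP30-KO called 3 of the 8 genes lower (ERBB3, EREG and NRG1; 13.5% of all genes) and that of MLL1-KO with SIN3A/3B-DKO called 4 lower, AREG added (13% of all genes). MLL1-KO1 and MLL1-KO2 were called different in 1 of the 8, AREG (-0.78, adjusted p = 0.0399), where 7.15% of all genes were called lower. That call was lost in 7 of the 14 fits that left out 1 library: SAP30-KO1 replicate 1, either SIN3A/3B-DKO1 library or any MLL1-KO library. Between these 2 lines NRG1 (0.53, adjusted p = 3.14e-05) and HBEGF (-0.23, adjusted p = 0.000729) also differed by adjusted p, but fell short of 1.5-fold. Under quantile normalization the share of calls that were lower went from 70.3% to 51.6% in MLL1-KO1, from 59.3% to 48.4% in MLL1-KO2, from 68.6% to 56.4% in MLL1-KO1 against MLL1-KO2, from 68.0% to 50.4% in MLL1-KO against SAP30-KO and from 65.3% to 51.5% in MLL1-KO against SIN3A/3B-DKO, and no member changed direction in any line.

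Summed over the 7 EGFR ligand genes AREG, EREG, HBEGF, TGFA, BTC, EGF and EPGN, ligand RNA was not lower in the edited lines. The sum was 165 and 161 TPM in parental cells and 185 to 223 TPM in the 12 edited libraries, which did not overlap. EREG made up 12.4% and 12.3% of the sum in parental cells, 1.31% to 2.499% in libraries of the SAP30-KO or SIN3A/3B-DKO lines and 0.255% to 0.454% in the MLL1-KO libraries. HBEGF made up 49.8% and 50.6% in parental cells and 54.8% to 67.5% in the edited libraries.

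**Figure D4:**
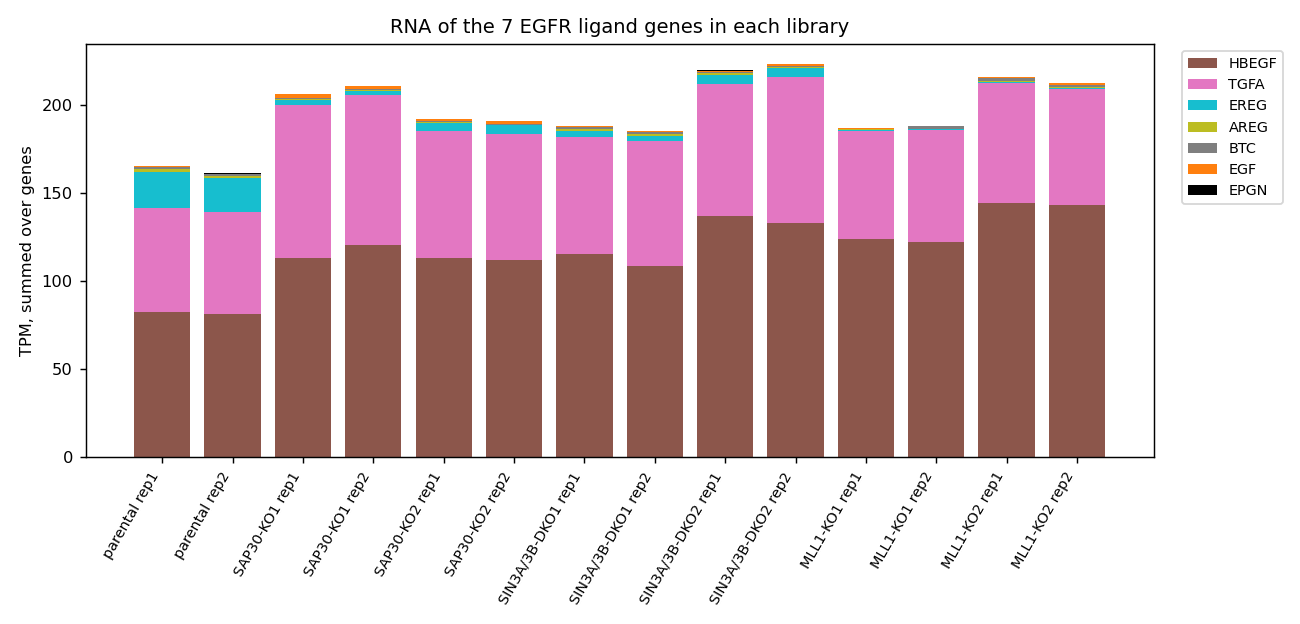
TPM summed over the 7 EGFR ligand genes (y axis, from 0) in each library, stacked by gene. HBEGF and TGFA make up most of every bar, the EREG segment is widest in the 2 parental libraries, and the 12 edited libraries reach 185 to 223 TPM against 161 and 165 TPM in parental cells.

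Other members of the family were scarce. EGF, the prototype ligand, measured 0.57 and 0.46 TPM in parental cells, 2.17 and 2.15 for SAP30-KO1, and 1.41 and 1.596 for SAP30-KO2. It passed the filter only through those 4 SAP30-KO libraries, where its log2 change was 1.39 and 0.98, so its call there is a description. NRG2, a neuregulin, was called higher in SAP30-KO2 (0.85), SIN3A/3B-DKO1 (0.71) and MLL1-KO2 (1.18) and lower in MLL1-KO1 (-0.67), so that the MLL1-KO lines went opposite ways. BTC (betacellulin) was not called in any line. ERBB4 had 0 to 7 reads in a library, EPGN 0 to 4 and NRG4 0 or 1, too few to pass the filter.

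Of all tested genes, 15.7% and 15.6% were called in either direction in the SAP30-KO lines, 16.4% and 13.6% in the SIN3A/3B-DKO lines and 23.2% and 25.2% in the MLL1-KO lines, and the counts of the 4 gene groups that follow stand beside those shares. Of 10 genes of ligand shedding, 1 was called lower in each SAP30-KO line, 0 in SIN3A/3B-DKO1 in either direction, 1 higher in SIN3A/3B-DKO2, 3 lower and 2 higher in MLL1-KO1, and 2 lower and 2 higher in MLL1-KO2, a share of 0% to 10% outside MLL1-KO and of 50% and 40% within it. FURIN, a protease that activates the ADAM sheddases, measured 35.6 and 35.8 TPM in parental cells and 94.9 to 104 TPM in the MLL1-KO libraries, which did not overlap (log2 change 1.46 and 1.48, SE 0.06). ADAM10, a sheddase of EGFR ligands, measured 184 and 186 TPM in parental cells and 95.4 to 112 TPM in the MLL1-KO libraries (-0.73 and -0.89), and ADAM9, a related surface protease, was also called lower there (-0.92 and -1.12). ADAM12, at 0.22 to 1.21 TPM over all libraries, had log2 changes of 0.96 and 0.74, and it passed the filter only through 1 SIN3A/3B-DKO2 and 1 MLL1-KO1 library.

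Of 15 tested inhibitors and turnover genes of the receptors, 2 were called lower in each SAP30-KO line, 1 higher in SIN3A/3B-DKO1, 0 in SIN3A/3B-DKO2, 2 lower and 1 higher in MLL1-KO1, and 1 lower and 2 higher in MLL1-KO2, shares of 0% to 13.3% outside MLL1-KO and of 20% in each MLL1-KO line that lie below those of all genes. PTPRJ, a receptor tyrosine phosphatase, measured 103 TPM in each parental library, 47.9 and 48.0 for MLL1-KO1, and 19.0 and 20.4 for MLL1-KO2 (-1.10 and -2.36, SE 0.04). LRIG1, a membrane protein that limits EGFR, was called higher in MLL1-KO1 and MLL1-KO2 (1.24 and 1.23), and LRIG3 lower in both SAP30-KO lines (-0.71 and -0.64). CBL, the ubiquitin ligase of activated EGFR, was called lower in each SAP30-KO line (-0.91 and -0.78), where the median of its 51 neighbours on chromosome 11 was -0.86 and -0.80. The part of the neighbourhood in the lower CBL was not tested.

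Of 29 adaptor, RAS-ERK and PI3K genes, 0 were called in SAP30-KO1, SAP30-KO2 or SIN3A/3B-DKO1, 1 was lower in SIN3A/3B-DKO2, 2 were lower in MLL1-KO1, and 2 were lower and 3 higher in MLL1-KO2, or 0% to 17.2% of the group, below the share of all genes in each line. STAT3, a transcription factor that EGFR activates, was called lower in MLL1-KO1 and MLL1-KO2 (-1.06 and -0.78), where the median of its 51 neighbours on chromosome 17 was -0.48 and -0.36. In the other 4 lines STAT3 was -0.58 to -0.42, short of 1.5-fold, with adjusted p of at most 1.05e-06.

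Among transcripts that ERK signaling is known to induce, the share called higher was above that of all genes in 5 of the 6 lines. In each of these 5 lines it rested on only 3 to 8 of 20 genes. The share called higher in SIN3A/3B-DKO2 was near that of all genes, and in MLL1-KO1 as many were called lower as higher. Of 20 such genes, 0 were called lower and 3 higher for SAP30-KO1, 0 and 4 for SAP30-KO2, 1 and 3 for SIN3A/3B-DKO1, 0 and 1 for SIN3A/3B-DKO2, 4 and 4 for MLL1-KO1, and 2 and 8 for MLL1-KO2. The higher calls were 15%, 20%, 15%, 5%, 20% and 40% of the group in that order, beside 7.8%, 7.44%, 7.76%, 6%, 6.89% and 10.2% of all genes. The lower calls were 0%, 0%, 5%, 0%, 20% and 10% of the group, beside 7.86%, 8.12%, 8.66%, 7.56%, 16.3% and 14.9% of all genes. Only in MLL1-KO1 was the lower share of the group above that of all genes. The median log2 change of the group ran from 0.08 to 0.26 over the lines, against -0.09 to 0.03 for all tested genes. ETV4, an ETS factor, was called higher in all 6 lines (0.65 to 0.98, SE 0.06), as were 0.945% of the genes tested; it measured 56.9 and 54.9 TPM in parental cells and 82.7 to 114 TPM in the edited libraries. SPRY4, a feedback inhibitor of receptor tyrosine kinase signaling, was called higher in 5 lines (0.59 to 1.15) and was 0.39 in SIN3A/3B-DKO2. SPRY1, of the same family, was called lower in MLL1-KO1 and MLL1-KO2 (-1.40 and -1.02) and in SIN3A/3B-DKO1 (-0.62). EMP1, an epithelial membrane protein, was called higher in MLL1-KO1 and MLL1-KO2 (1.56 and 0.87).

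**Figure D5:**
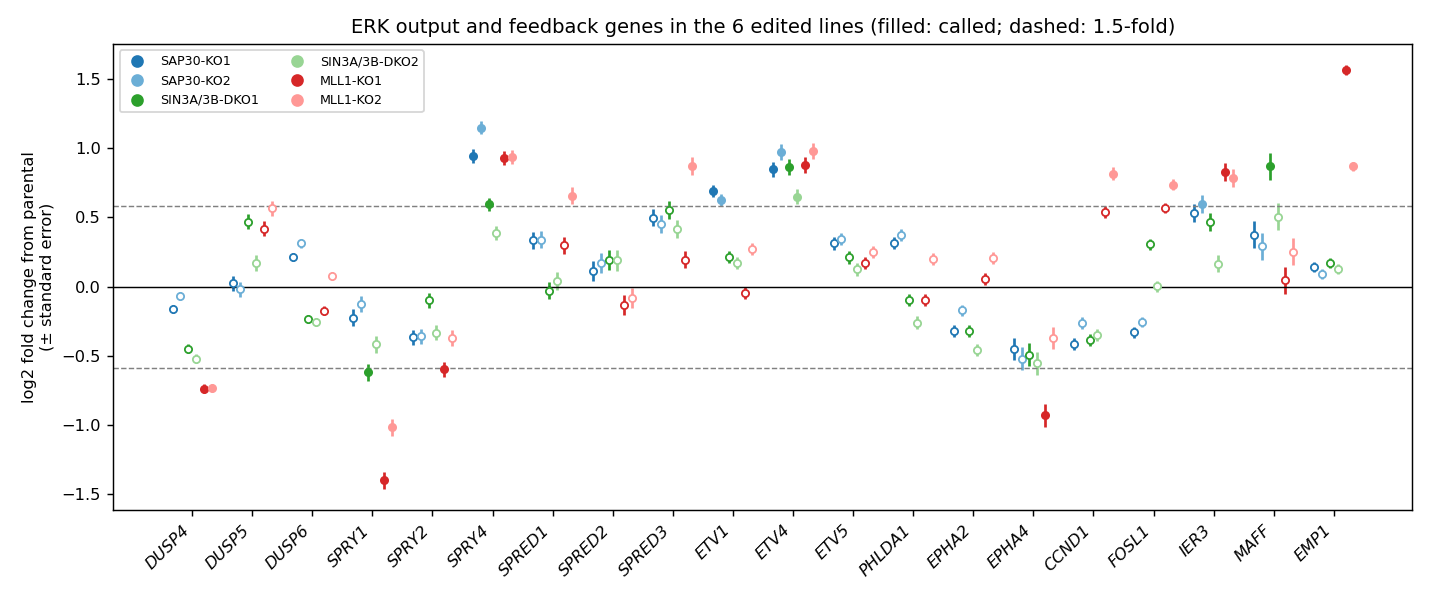
Log2 fold change from parental with its standard error (y axis) of the 20 ERK output and feedback genes (x axis) in the 6 lines. Filled points were called and dashed lines mark 1.5-fold; ETV4 is above the upper line in all 6 lines, and SPRY1 is lowest in MLL1-KO.

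The genes whose pattern over the 14 libraries was most like each gene called in both lines of at least 1 genotype were found by Pearson's r of log2(TPM + 0.5), given as a description. For EREG they were LMO7, AASS and AP2B1 (r = 0.98 each). For NRG1 they were CMIP, EDIL3 and CDC6 (r = 0.99 each). For ERBB3 they were KAT7, GGCX and SCCPDH (r = 0.98 each), for ERBB2 BTN2A1, ZFPM2 and ANKRD6 (r = 0.96 to 0.98), and for AREG MIR3656, TRAPPC4 and ATP5L (r = 0.94 to 0.95). The libraries share the same 2-library groups, so these values follow the group means. Shifts of whole chromosome regions, such as that around KMT2A, were not taken out before this search, and their part in the matches was not tested.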

How the data were processed

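RNA of untreated MDA-MB-231 cells was isolated, poly(A) libraries were prepared with the KAPA mRNA kit, and sequencing was on a NextSeq instrument. Per the submitters' processing notes, reads were checked with FastQC 0.11.2, aligned with TopHat to hg19 and counted with featureCounts; options, strand setting and annotation are not given in the sources used here. The deposited table is named for RPKM, but each column sums to 1000000 as TPM values do, so the values are treated as TPM computed by the authors from gene counts, per length and library. Of the gene names, 28 had turned into dates and were left as they are.

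TPM steps of low genes gave whole reads within 0.02 for 18519 of 18519 genes above 0 (100.0%). Genes at 1 TPM or more in at least 2 of 14 libraries (13540) were tested with limma 3.58.1 in R 4.3.3 on log2(TPM + 0.5), all 7 groups in 1 fit without covariates (7 residual degrees of freedom, prior 3.58), with Benjamini-Hochberg adjustment. Fold changes on this scale understate those of low genes. The procedure was tested on simulated data in which only genes well above the filter in parental cells were changed. That test does not cover genes with few reads, such as AREG. Neighbouring genes came from GENCODE release 44 on GRCh37 (13061 of the tested genes placed, 96.5%). Replicate libraries differed by more than sampling noise in every group (chi-square per degree of freedom 1.46 to 7.66).

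The members and lists were chosen with earlier results of these data known. From each pathway list up to 4 genes are named, those called in the same direction in both lines of a genotype with the largest mean change, and values of other genes are given where a result turns on them. NRG2, BTC, the 4q neighbours and the scarce genes were named after their values were seen. Alternatives were the pseudocount, the filter, the scaling, the fold minimum, the libraries fitted, a replicate block, voom on recovered reads, subtraction of the running median of neighbouring genes, and leaving out each library in turn.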

Additional observations from a re-analysis of the deposited data

Results flagged for a closer look

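Direct comparisons between lines or genotypes, in which the parental means play no part although those libraries share in the estimate of spread, differed for 4 of the 8 genes by limma with adjusted p below 0.05 and at least 1.5-fold. Of all tested genes, 13.5% were called lower in MLL1-KO than in SAP30-KO and 13% than in SIN3A/3B-DKO. The share lower in SAP30-KO than in SIN3A/3B-DKO was 3.25%. Line 1 was lower than line 2 for 0.0739% (SAP30-KO), 1.01% (SIN3A/3B-DKO) and 7.15% (MLL1-KO) of genes. ERBB3 was lower in the MLL1-KO lines than in the SAP30-KO lines (log2 difference -1.46, higher in 4 of 4 SAP30-KO libraries) and than in the SIN3A/3B-DKO lines (-1.28). EREG was lower in the MLL1-KO lines than in the SAP30-KO lines (-1.86) and the SIN3A/3B-DKO lines (-1.99), and it differed between SAP30-KO1 and SAP30-KO2 (-0.68, lower in the first) and between SIN3A/3B-DKO1 and its partner line (-0.66, lower in the first). NRG1 was lower in the MLL1-KO lines than in the SAP30-KO lines (-0.95) and the SIN3A/3B-DKO lines (-1.27). AREG was lower in the SAP30-KO lines (-1.21) and the MLL1-KO lines (-0.91) than in the SIN3A/3B-DKO lines, and lower in MLL1-KO1 than in MLL1-KO2 (-0.78), on 2 to 30 reads per library. AREG passed the filter on low values through 1 parental and 3 SIN3A/3B-DKO libraries alone. Every call between 2 lines of 1 genotype was lost in at least 1 of the 14 fits that left out 1 library.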

How the results depend on the processing

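EREG was called lower in all 6 lines in each of 23 refits that kept the 1.5-fold minimum (138 values), with log2 changes from -5.00 to -1.75. The number of members called against parental changed by over 1.5 times with the fold minimum: with a 2-fold minimum it was 2 in SAP30-KO1, 2 in SAP30-KO2, 1 in SIN3A/3B-DKO1, 1 in SIN3A/3B-DKO2 and 3 in MLL1-KO2, and without a fold minimum 8 in SAP30-KO2, 6 in SIN3A/3B-DKO1, 5 in SIN3A/3B-DKO2 and 8 in MLL1-KO2. Without a fold minimum, direct comparisons called 3 (SIN3A/3B-DKO1 against SIN3A/3B-DKO2), 3 (MLL1-KO1 against MLL1-KO2), 5 (SAP30-KO against SIN3A/3B-DKO), 5 (MLL1-KO against SAP30-KO) and 8 (MLL1-KO against SIN3A/3B-DKO) members. Shares of all genes called are given here at the 1.5-fold minimum only. The counts at other minimums therefore show how member calls depend on the threshold and are not a result about the family. Each comparison between 2 lines of 1 genotype rested on 1 member and called 0 with a 2-fold minimum. SAP30-KO1 against SAP30-KO2 also called 0 with pseudocount 0.1, without the filter on low values and with only the libraries compared, SIN3A/3B-DKO1 against SIN3A/3B-DKO2 called 0 with only the libraries compared, and MLL1-KO1 against MLL1-KO2 called 0 with pseudocount 1 and 2 with voom. Leaving out 1 library gave 0 to 1 members in each of these 3 comparisons. Subtracting the running median of 51 genes left 2 members in SAP30-KO2, 1 in SIN3A/3B-DKO1 and 0 in MLL1-KO1 against MLL1-KO2.

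AREG, not called in the SIN3A/3B-DKO lines, ran from -0.46 to 0.11 in SIN3A/3B-DKO1 and from -0.66 to 0.11 in SIN3A/3B-DKO2 when 1 library was left out: it reversed without parental replicate 1 in both (0.11 and 0.0045) and without SIN3A/3B-DKO2 replicate 2 (0.11). Its MLL1-KO2 call was lost with pseudocount 1 (-0.55), quantile normalization (-0.40) and only the libraries compared (adjusted p = 0.0561); the cause was not tested. Of 1475 single-gene values, these AREG values included, 1391 kept their side, 56 lost and 25 gained a call, and 3 reversed. Quantile normalization moved the median of all genes by 0.13 in MLL1-KO1, where ERBB2 then fell short of 1.5-fold (-0.55). Labels share replicate numbers, but same-numbered libraries did not deviate together (mean r = 0.01, from -0.07 to 0.08 over 21 pairs), and the fit with a replicate block called the same numbers of members (5, 4, 2, 3, 5 and 5 against parental).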
